A study of Mus musculus with 11 samples.

Results

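Acod1, Xdh, Aoah, Nos2, Arg1, Cybb, Chil3, Il1b and Tnf are 9 of the 25827 genes in the count matrices. They are enzymes, an oxidase subunit, a lectin and cytokines that inflamed myeloid cells make, chosen by name, and their UMIs (unique molecular identifiers, 1 per captured RNA molecule) were summed in every sample over microglia, infiltrating phagocytes and the other classes of nuclei defined by marker genes. The question is which class carries each gene. Values of these samples helped to choose them: their UMIs summed per sample over these classes, with Acod1, Xdh and Aoah known to differ by genotype in microglia and Chil3 in cerebellar granule cells. Levels, differences and fold changes of the 9 genes are therefore described with no test, and p-values are given for other genes of the same pathways. By level, most members were highest in a myeloid class, but Xdh was also found outside myeloid nuclei. By count, most Arg1 and Chil3 UMIs lay in granule cells, which were 69.6% of kept nuclei, as described below.

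These genes equip myeloid cells for attack and for repair. Acod1 makes itaconate from an intermediate of the citric acid cycle and so restrains inflammation, Nos2 makes nitric oxide from arginine, Arg1 breaks the same arginine down to ornithine, and Cybb is the catalytic subunit of the NADPH oxidase with which phagocytes make superoxide. Xdh makes uric acid and reactive oxygen, Aoah removes acyl chains from bacterial lipopolysaccharide, Chil3 is a chitinase-like lectin made by neutrophils and alternatively activated macrophages, and Il1b and Tnf are the interleukin-1 and tumour necrosis factor that drive inflammation in experimental autoimmune encephalomyelitis (EAE), the mouse model of multiple sclerosis.

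Nuclei came from cerebellum and brainstem of 1 brain hemisphere and from cervical spinal cord of male mice aged 8 to 12 weeks. All mice carried both floxed alleles of Il12rb2, a subunit of the interleukin-12 receptor. In NestinCre/+Il12rb2fl/fl mice (NestinCre below) Cre under the Nestin promoter deletes Il12rb2 in cells that derive from neural precursors, and Il12rb2fl/fl mice (fl) have no Cre. Microglia and blood-borne myeloid cells do not arise from neural precursors. The samples were 4 fl EAE and 4 NestinCre EAE, taken 10 days after immunization with 200 µg of MOG peptide in complete Freund's adjuvant and with pertussis toxin, and 2 fl naive and 1 NestinCre naive. In each EAE group replicates 1 to 3 were sequenced in run 1 and replicate 4 in run 2, and the naive samples in runs 2 and 3. After filters each sample kept 11945 to 19558 nuclei with a median of 1786 to 3148 UMIs per nucleus. Il12rb2 itself did not separate the groups, at 11.6 to 17.1 UMIs per 1000000 in fl EAE and 7.98 to 18.0 in NestinCre EAE, but reads on introns and exons outside the deleted part are counted too, so this does not check the deletion.

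Microglia numbered 106 to 229 nuclei in each fl EAE sample and 176 to 458 in each NestinCre EAE sample. Infiltrating phagocytes, named from markers such as Ccr2, Ly6c2 and Plac8, numbered, in replicate order, 5, 1, 16 and 18 in the fl EAE samples and 137, 89, 104 and 24 in the NestinCre EAE samples. Neutrophils numbered 5, 4, 7 and 8 in the former and 137, 49, 59 and 0 in the latter. NestinCre EAE 4 had no neutrophil nucleus. Nuclei of its run were kept here only with 500 genes or more, against 200 in run 1, and 15.7% of run 1 neutrophil nuclei had fewer than 500. Under the same limit fl EAE 4, of the same run, had 8 neutrophils, and why NestinCre EAE 4 had none was not tested. Shared barcodes were few, 47 to 140 per pair of samples and at most 0.692% of a sample. Of the fl EAE samples, with 1 to 18 phagocytes each, only those with 16 and 18 reached the limit of 10 nuclei for a mean. All NestinCre EAE samples reached it. Levels in phagocytes are therefore described for these samples, and a difference by genotype was not tested in that class. In whole libraries fewer cells of a class and less RNA per cell cannot be told apart.

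The genes lie apart from each other except Xdh and Tnf, both on mouse chromosome 17 and far from each other. In GRCm39 with GENCODE vM39, all 9 are protein-coding, and UMIs on introns as well as exons were counted, so long genes gather more of them: Aoah (ENSMUSG00000021322) spans 242505 bases of chromosome 13 and Tnf (ENSMUSG00000024401) 2627 bases of chromosome 17, from 35418357 to 35420983. Levels are therefore compared between classes and samples and not between genes. Cybb (ENSMUSG00000015340) is on chromosome X, from 9301491 to 9354010, Nos2 (ENSMUSG00000020826) on chromosome 11, from 78811613 to 78851080, Il1b (ENSMUSG00000027398) on chromosome 2, from 129206490 to 129213059, and Arg1 (ENSMUSG00000019987) on chromosome 10, from 24791118 to 24803817.

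Upstream sequence was in the RefSeq table (GRCm38.p6) for Acod1, Aoah, Cybb, Chil3, Il1b and Tnf. The 250 bases before the start of transcription were searched on both strands for the interferon-stimulated response element (GAAANN followed by GAAA), the STAT site TTCNNNGAA, the TATA box TATAAA and the NF-kB consensus. Cybb and the 3 members with a TATA box are shown, with matches in capitals, because a TATA box is typical of sharply induced genes and the interferon element of genes that answer interferon.

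Acod1: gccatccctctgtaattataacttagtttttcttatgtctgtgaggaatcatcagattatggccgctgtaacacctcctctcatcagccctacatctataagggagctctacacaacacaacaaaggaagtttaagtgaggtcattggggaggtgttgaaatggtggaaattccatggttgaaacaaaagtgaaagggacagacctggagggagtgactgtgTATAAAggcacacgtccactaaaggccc
Il1b: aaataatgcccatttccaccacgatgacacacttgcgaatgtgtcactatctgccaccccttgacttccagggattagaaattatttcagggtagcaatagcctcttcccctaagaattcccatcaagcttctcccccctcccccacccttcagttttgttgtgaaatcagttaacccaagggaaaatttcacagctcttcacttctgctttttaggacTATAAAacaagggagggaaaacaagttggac
Tnf: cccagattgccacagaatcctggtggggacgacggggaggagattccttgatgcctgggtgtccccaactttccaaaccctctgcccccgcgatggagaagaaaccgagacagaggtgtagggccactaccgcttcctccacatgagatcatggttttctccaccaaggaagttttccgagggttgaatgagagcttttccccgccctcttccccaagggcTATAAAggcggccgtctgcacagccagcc
Cybb: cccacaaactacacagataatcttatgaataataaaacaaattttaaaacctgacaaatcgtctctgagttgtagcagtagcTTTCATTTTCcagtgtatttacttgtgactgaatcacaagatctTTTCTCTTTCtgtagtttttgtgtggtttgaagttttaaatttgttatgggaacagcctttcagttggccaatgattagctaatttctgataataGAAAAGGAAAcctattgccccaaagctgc

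All 4 are written 5′ to 3′ on the strand of their gene (Acod1, chr14:103046762-103047011, plus; Il1b, chr2:129371140-129371389, Tnf, chr17:35202008-35202257, and Cybb, chrX:9469325-9469574, minus). The TATA box began at -28 in Acod1, -31 in Il1b and -29 in Tnf, counted from the start of transcription, and 12.4% of 32841 promoters held 1. Cybb held the interferon element 3 times, at -168, -124 and -29, against 2.98% of promoters with a match. Chil3 had a STAT site at -172, Aoah had none of the 4 motifs, and the NF-kB consensus, held by 7.25% of promoters, was in none of the 6 windows. No matches overlapped. These are matches of letters and not shown binding sites.

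In NestinCre EAE samples the members divided among myeloid classes. Pooled over the 4 samples, infiltrating phagocytes held the largest share of immune UMIs for 6 members (Xdh, Aoah, Nos2, Arg1, Cybb and Chil3), neutrophils for Il1b, and microglia for Acod1 and Tnf. Shares depend on how many nuclei of each class were captured, so levels are given beside them as CPM (UMIs of a gene per 1000000 UMIs of the class). These class values are what the choice of genes was based on and carry no test, and their intervals (exact binomial for shares, exact Poisson for CPM, 95%) cover counting error only.

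**Figure D1:**
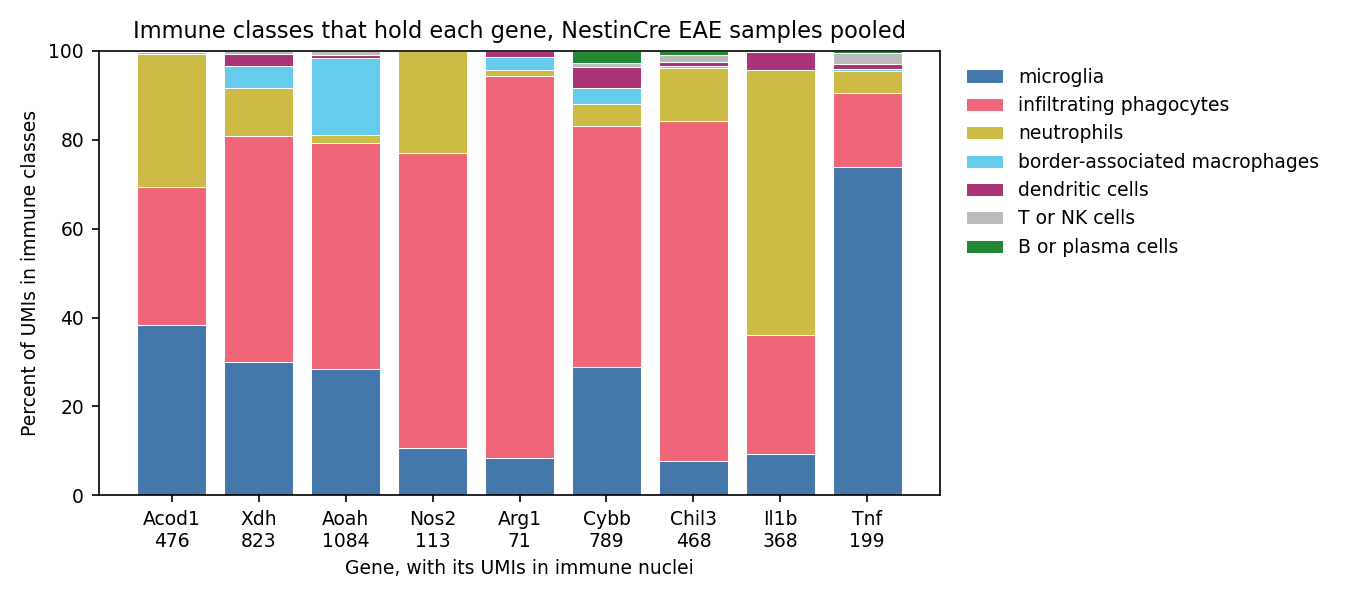
Percent of each gene's UMIs in immune nuclei that each class held, with the 4 NestinCre EAE samples pooled (bar height, 0 to 100) and the number of UMIs under each gene. Microglia hold the largest part of Tnf (73.9%) and Acod1 (38.2%), neutrophils of Il1b (59.5%), and infiltrating phagocytes of the other 6 genes.

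Among immune nuclei, Arg1, the arginase of alternatively activated macrophages, had 61 of 71 UMIs in phagocytes (85.9%, interval 75.6 to 93.0%), although these 61 were part of 433 Arg1 UMIs over all kept nuclei of the same samples. They lay in 21 of 354 phagocyte nuclei, and 1 nucleus held 20 of them. By sample Arg1 in phagocytes was at 112, 8.52, 58.0 and 606 CPM in NestinCre EAE 1 to 4, so the level was uneven and rests on a few nuclei. NestinCre EAE 1 held 28 UMIs in 12 nuclei, and NestinCre EAE 4, which had 24 phagocytes, held 23 in 2. Without NestinCre EAE 4 the pooled level was 72.8 CPM. Neutrophils held 1 Arg1 UMI and border-associated macrophages 2.

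Chil3 had 358 of 468 immune UMIs in phagocytes (76.5%), in 113 nuclei, and 12.0% in neutrophils. It was uneven between samples, at 1046, 434.5, 284 and 52.7 CPM in phagocytes of NestinCre EAE 1 to 4, and NestinCre EAE 1 alone held 261 of the 358 UMIs. The neutrophils of that sample were also the highest of the 3 samples that had any, at 408 CPM against 111 and 40.2.

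Nos2, the inducible nitric oxide synthase, had 75 of 113 immune UMIs in phagocytes (66.4%, interval 56.9 to 75.0%), 23.0% in neutrophils and 10.6% in microglia. It came from few nuclei: 20 phagocytes held it and the top 5 held 72.0% of the UMIs. In phagocytes it was at 40.1, 136, 135 and 737.5 CPM in NestinCre EAE 1 to 4, and in NestinCre EAE 4 the 28 UMIs lay in 3 nuclei, 18 of them in 1. In neutrophils it was at 139, 27.8 and 161 CPM in NestinCre EAE 1 to 3. Phagocytes and neutrophils were close when pooled, at 134 and 125 CPM, and in run 1 alone, without NestinCre EAE 4, neutrophils were higher, at 125 against 90.04 CPM. No immune nucleus of a fl EAE sample had a Nos2 UMI. Arg1 and Nos2 compete for arginine, and their phagocyte level was highest in the same sample, NestinCre EAE 4, whose 24 phagocytes are the fewest of its group.

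Cybb, Xdh and Aoah were spread more evenly over phagocytes, in 191, 202 and 192 of 354 nuclei. Cybb had 54.4% of its immune UMIs in phagocytes and 28.8% in microglia, Xdh 51.0% and 29.9%, and Aoah 50.9% and 28.3%. In NestinCre EAE 4 alone, with 24 phagocytes and 458 microglia, the order of UMIs was turned. Microglia held 92 against 30 for Cybb, 45 against 17 for Xdh and 88 against 59 for Aoah. Phagocyte levels by sample ranged from 565 to 992.5 CPM for Cybb, 448 to 886 for Xdh and 782 to 1554 for Aoah in NestinCre EAE. The few phagocytes of fl EAE 3 and fl EAE 4, 16 and 18 nuclei, were at 954.5 and 421 CPM for Cybb, 434 and 643 for Xdh and 1258 and 445 for Aoah.

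Pooled over NestinCre EAE samples, Aoah was highest in border-associated macrophages, at 1807 CPM against 986 in phagocytes. By sample the classes overlap: phagocytes were above these macrophages in NestinCre EAE 4, at 1554 against 1469 CPM, and in fl EAE 3, at 1258 against 1240. The Aoah level of border-associated macrophages was 1469 to 2035 CPM in the 4 NestinCre EAE samples, 1045 to 2000 in fl EAE, 829 and 1240 in fl naive and 813 in NestinCre naive. In fl EAE samples this class, with 52 nuclei, held 163 of 221 immune Aoah UMIs (73.8%), and in NestinCre EAE, with 44 nuclei, 17.2%. In fl EAE they held 6 Il1b UMIs, 3 in 1 nucleus of fl EAE 1 and 3 in 1 of fl EAE 3, and no Nos2. In NestinCre EAE they had neither, where 3 UMIs, the limit that a count of 0 allows, would be 71.6 to 220.4 CPM per sample.

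Il1b and Acod1 both had their highest level in neutrophils, and Il1b also had its largest pooled share there. Neutrophils held 219 of 368 immune Il1b UMIs in NestinCre EAE (59.5%, interval 54.3 to 64.6%) and 26 of 51 in fl EAE (51.0%, 36.6 to 65.3%), although they were 245 and 24 nuclei. The Il1b level of neutrophils was 751, 1056 and 1790 CPM in NestinCre EAE 1 to 3 and 0, 666, 2131 and 1187 in fl EAE 1 to 4, where 4 to 8 nuclei stand behind each value. The groups overlap. Phagocytes held 26.9% of Il1b UMIs in NestinCre EAE and microglia 9.24%.

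Tnf UMIs lay mostly in microglia, as these were named. Microglia held 147 of 199 immune Tnf UMIs in NestinCre EAE (73.9%, interval 67.2 to 79.8%) and 20 of 27 in fl EAE (74.1%, interval 53.7 to 88.9%). Per UMI of the class, however, microglia at 59.4 CPM and phagocytes at 58.9 were close in NestinCre EAE, with 1074 microglia nuclei against 354 phagocytes. In fl EAE 40 phagocytes held 6 Tnf UMIs of 74192 in the class, and 580 microglia held 20 of 1151657. The level there was higher in phagocytes, but 5 of the 6 UMIs were in fl EAE 3. Counting only microglia without a marker UMI of another myeloid class, the microglial share was 16.1% for Tnf and 0.339% for Acod1, and phagocytes led for both. That limit kept 192 of the 1074 microglia nuclei and cut no other class. A lower microglial share was thus fixed by the limit, and which class leads is not read from it. Acod1, with all microglia counted, had 182 of 476 immune UMIs in microglia (38.2%, interval 33.9 to 42.8%), 31.1% in phagocytes and 30.0% in neutrophils. Its level ran the other way, at 687 CPM in neutrophils, 264 in phagocytes and 73.5 in microglia. Without NestinCre EAE 4, which had no neutrophils, the microglial share was 32.4% and neutrophils led, so the class that leads for Acod1 rests on that sample.

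**Figure D2:**
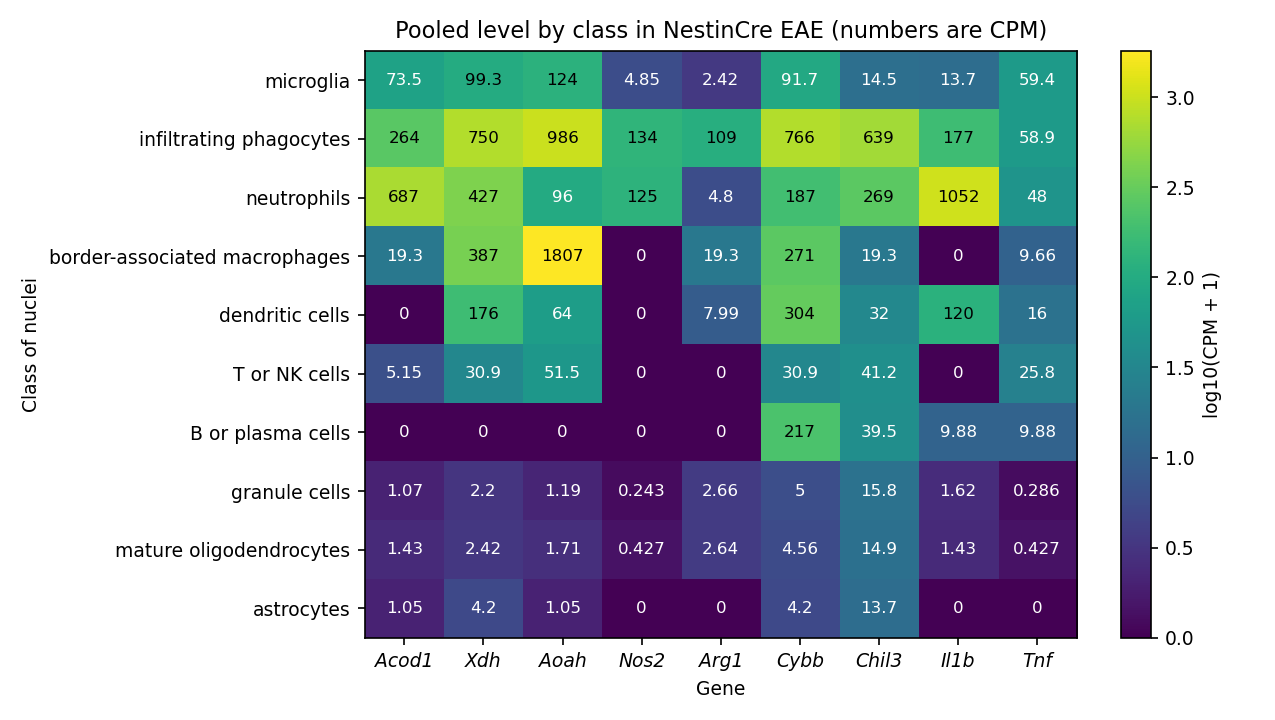
Pooled level of each gene by class in the 4 NestinCre EAE samples, in CPM (numbers), coloured by log10(CPM + 1), to be compared within a column. Among the classes drawn, Acod1 and Il1b peak in neutrophils, Aoah in border-associated macrophages, and Xdh, Arg1, Cybb and Chil3 in infiltrating phagocytes, while Nos2 is close in phagocytes and neutrophils and Tnf is close to 59 CPM in microglia and phagocytes. Granule cells are below phagocytes for every gene, but not below microglia for Chil3 and Arg1.

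Free RNA in the droplets gives UMIs in nuclei that do not make a gene. It was not measured directly, and the level in granule cells, neurons of the cerebellum that make up most nuclei, was taken as a gauge of it. Whether granule cells make any of these genes was not tested. In NestinCre EAE granule cells were at 1.07 CPM for Acod1, 2.20 for Xdh, 1.19 for Aoah, 0.243 for Nos2, 5.0 for Cybb, 1.62 for Il1b and 0.286 for Tnf, with a median of 2084 UMIs per nucleus against 2046 in microglia. At that rate, taken sample by sample, microglia of NestinCre EAE would hold 2.43 Acod1, 2.71 Aoah, 4.87 Xdh and 0.698 Tnf UMIs, and they held 182, 307, 246 and 147. Chil3 and Arg1 in microglia were not above it: 36 Chil3 UMIs stood against 34.6 at the granule cell rate, and 6 Arg1 UMIs against 6.22. In phagocytes the same members stood far above it, at 358 against 13.4 for Chil3 and 61 against 1.58 for Arg1.

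**Figure D3:**
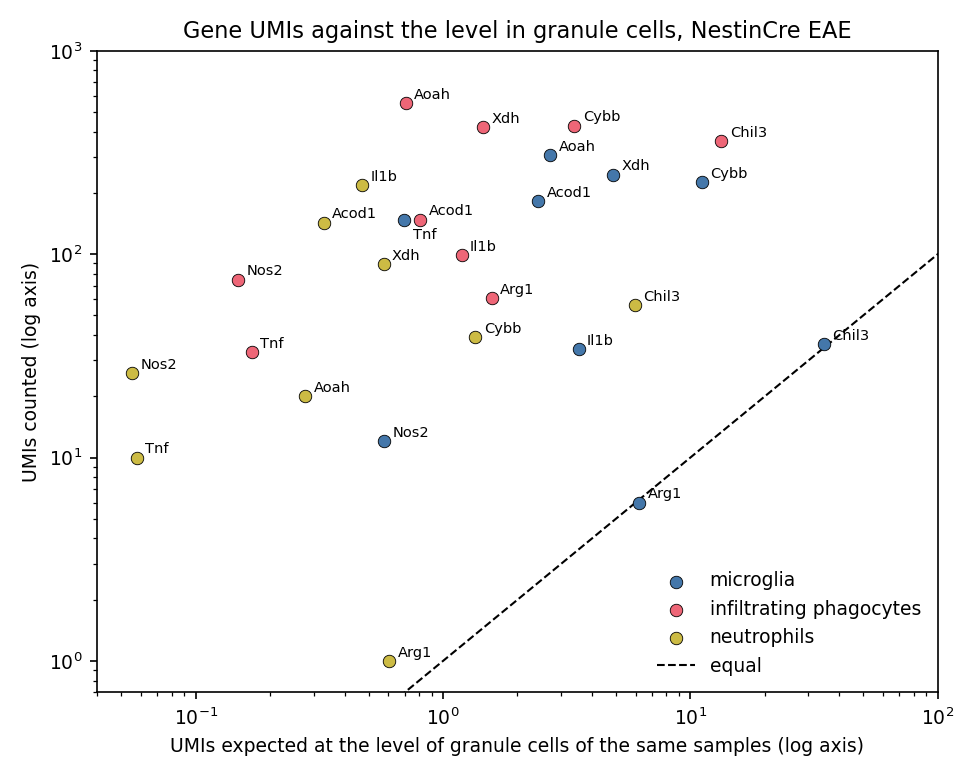
UMIs counted in microglia, infiltrating phagocytes and neutrophils of NestinCre EAE samples (log axis) against the UMIs those nuclei would hold at the CPM of granule cells of the same samples (log axis), 1 point per gene and class. Chil3 and Arg1 in microglia lie on the line of equal values, Arg1 in neutrophils is a single UMI, and the other points lie at least 9.38 times above the line.

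Granule cells held 51.6% of all Chil3 UMIs of the series and 51.1% of all Arg1 UMIs, but with unlike patterns. Of all genes together they held 287280318 of 6.53e+08 UMIs, so shares of this size are not read as particular to the 2 genes. Per UMI, both were lower in granule cells than in phagocytes of NestinCre EAE. Chil3 there was at 40.3, 8.46, 14.5 and 1.05 CPM in NestinCre EAE 1 to 4 and at most 0.613 in fl EAE samples, the same order of samples as its level in phagocytes except between NestinCre EAE 2 and 3. Arg1 there was at 2.57 to 3.68 CPM in fl EAE, 2.11 to 3.17 in NestinCre EAE, 3.17 and 3.68 in fl naive and 2.05 in NestinCre naive, so it was present without EAE and the groups overlap. Mature oligodendrocytes had a like Arg1 level of 3.43 CPM over the series.

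Xdh was not bound to myeloid nuclei. Endothelial cells, which make xanthine oxidase in many tissues, were at 861.5 CPM in NestinCre EAE (interval 639 to 1136), from 50 UMIs in 13 of 22 nuclei, beside the 750.0 CPM of phagocytes (interval 680.0 to 825), and at 172 CPM in fl EAE, from 18 UMIs in 6 of 36 nuclei. Leptomeningeal cells or fibroblasts were at 218 and 22.2 CPM. Nos2 was also in that class, as 12 UMIs in 4 of 74 nuclei of NestinCre EAE against 0 of 101 nuclei in fl EAE, which allows up to 2.97% of nuclei with a UMI and sets no limit on nuclei that express it. No member passed the filter on low counts in leptomeningeal cells or fibroblasts, and endothelial cells were too few per sample for a fit.

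In microglia, the largest myeloid class, Acod1 had 38, 9, 88 and 47 UMIs in replicates 1 to 4 of NestinCre EAE against 0, 0, 1 and 0 in those of fl EAE, and none in the naive samples. Xdh had 122, 36, 43 and 45 against 0, 1, 2 and 0, and 3 in all in the 3 naive samples. Aoah had 124, 26, 69 and 88 against 1, 0, 2 and 1, and 6 in the naive samples. Each of the 3 was higher in every NestinCre EAE sample than in every fl EAE sample, as their choice implies, at a mean of 77.01 ± 63.9, 112 ± 72.1 and 128 ± 63.2 CPM (SD, n = 4) against 0.535 ± 1.07, 2.45 ± 2.87 and 3.15 ± 2.21.

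Cybb, the oxidase subunit, had the same order. Its UMIs numbered 51, 11, 73 and 92 in replicates 1 to 4 of NestinCre EAE and 1, 2, 8 and 0 in those of fl EAE, or 33.7 to 141 against 0 to 17.1 CPM, and 1, 0 and 1 in the naive samples. The groups do not overlap. The difference was 3.28 on the log2 scale (SE 0.51, edgeR fit with sequencing run as covariate), and 2.85 to 4.25 when 1 sample was left out. The same fit called 6.34% of 7162 genes, 4.8% higher and 1.54% lower, but Cybb passed its filter on low counts through the group in which it was high. Microglia with no marker UMI of another myeloid class held 9 Cybb UMIs in fl EAE and 13 in NestinCre EAE, at 32.1 and 41.1 CPM.

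Tnf had 18, 19, 63 and 47 UMIs in microglia of NestinCre EAE, in replicate order, against 2, 1, 16 and 1 in fl EAE, and 2, 3 and 5 in the naive samples. Sample fl EAE 3, at 34.3 CPM, lay within the 31.2 to 122 CPM of NestinCre EAE. The difference was 1.99 on the log2 scale (SE 0.49), 1.75 in run 1 alone, and from 1.48 without NestinCre EAE 3 to 3.28 without fl EAE 3.

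Nos2, Arg1, Chil3 and Il1b had too few microglial UMIs for the filter on low counts. Nos2 had none in fl EAE and 6, 2, 3 and 1 in NestinCre EAE, 11 of the 12 in 5 nuclei. That is 0.947 to 10.4 CPM by sample, and pooled it is at least 1.86-fold higher, with 3 UMIs over the fl EAE group as the floor. No fitted fold change is given for Nos2, since against a group at 0 it depends on the prior count. Il1b had 1, 1, 5 and 0 against 9, 0, 19 and 6, and Arg1 2, 0, 0 and 2 against 3, 1, 0 and 2. Fitted without the filter, the log2 fold change was 1.46 for Il1b (SE 0.63) and -0.48 for Arg1 (SE 1.08). Among the 5 members that passed the filter, Acod1, Xdh, Aoah and Cybb did not overlap between the EAE groups, and 6.59% of genes tested lay higher in every NestinCre EAE sample. Because the genes were chosen on such values, nothing is read from the count.

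**Figure D4:**
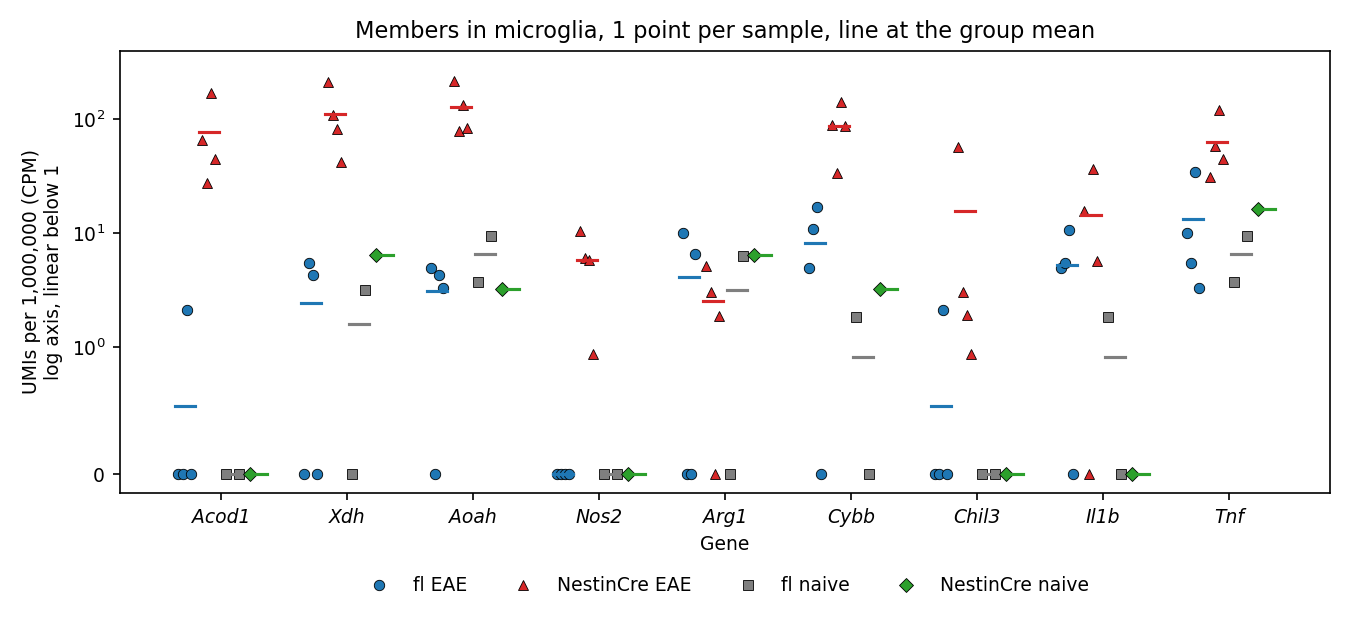
Level of each gene in microglia (CPM, log axis, linear below 1), 1 point per sample and a line at the group mean, for fl EAE (4 samples), NestinCre EAE (4), fl naive (2) and NestinCre naive (1). For Acod1, Xdh, Aoah and Cybb the NestinCre EAE samples lie above the fl EAE samples, Nos2 is at 0 in fl EAE and at 0.947 to 10.4 CPM in NestinCre EAE, Tnf overlaps through 1 fl EAE sample, and Arg1 is at 0 to 9.98 CPM in every group.

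Microglial UMIs of these genes sat in part of the nuclei. Clustering, made without the members among its genes, gave 6 groups of microglia. Of the microglia of NestinCre EAE, 311 of 1074 nuclei were in microglia 4, whose leading genes include Iigp1 and Gm4951, interferon-induced GTPases, beside microglial genes such as Ly86. That cluster held 168 of 182 Acod1 UMIs, 213 of 307 Aoah, 145 of 246 Xdh, 125 of 227 Cybb and 101 of 147 Tnf, and 21 of 34 Il1b UMIs. Acod1 was at 200.4 CPM there and 0 to 20.4 in the others. By sample it was at 129, 54.9, 611 and 142 CPM in microglia 4 of NestinCre EAE 1 to 4, and without NestinCre EAE 3, which held 81 of the 168 UMIs, the pooled level was 123. Xdh was at 173 CPM in microglia 4, and 104 without NestinCre EAE 1, against 46.8 to 84.2 in microglia 2, 5 and 6, but in NestinCre EAE 2 the order was turned, with 91.5 CPM in microglia 4 and 93.6 to 126.5 in microglia 2, 5 and 6, while microglia 1 and 3 held 4 and 3 Xdh UMIs. Cybb was at 149 against 125 in microglia 6 and 0 to 55.6 in the rest. Tnf rested on NestinCre EAE 3, which held 46 of the 101 UMIs in microglia 4, and 1 microglia nucleus of that sample held 23. Microglia 4 was at 347 and 108 CPM for Tnf in NestinCre EAE 3 and 4, above the other clusters. In NestinCre EAE 2 it was at 64.0 against 81.9 and 70.3 in microglia 2 and 5. In NestinCre EAE 1 it was at 47.8 against 50.2 in microglia 6. Single nuclei mattered for Acod1: 51 microglia had it, the top 5 held 52.2% of its UMIs and 1 held 34.

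With samples pooled, different clusters hold most microglia in the EAE groups. Microglia 1 and 3 had 37.8% and 32.9% of fl EAE nuclei but 2.79% and 3.35% of NestinCre EAE nuclei, and microglia 4 had 7 fl EAE nuclei. Sample fl EAE 4 differed from the pooled group, with 23 and 24 of its 119 microglia in microglia 1 and 3. It had 63 in microglia 2, the largest cluster of NestinCre EAE (30.6%). Levels of the members in microglia therefore compare unlike mixtures of microglia.

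**Figure D5:**
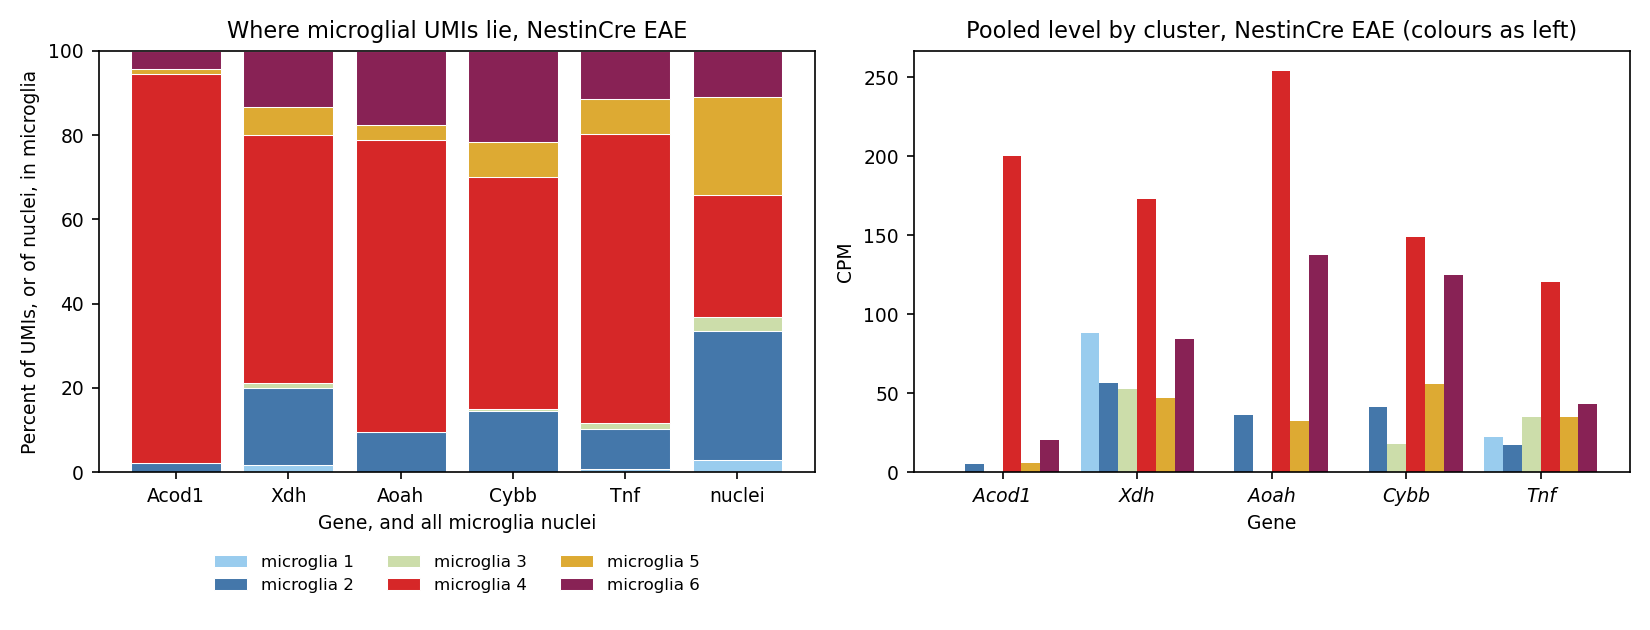
Left, percent of the microglial UMIs of 5 genes, and of all microglia nuclei, in each of 6 clusters with the 4 NestinCre EAE samples pooled. Right, level of the same genes in each cluster (CPM). Microglia 4 holds 29.0% of nuclei and 168 of 182 Acod1 UMIs, whereas pooled Xdh is at 46.8 CPM or more in microglia 2, 5 and 6 as well, and its bars for microglia 1 and 3 rest on 4 and 3 UMIs.

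Markers of phagocytes and dendritic cells moved with the members in microglia, and those of neutrophils and border-associated macrophages did not clearly do so. The infiltrating phagocyte list (7 of 7 genes in the files) summed to 11.0 to 57.8 CPM in microglia of fl EAE and 70.1 to 307 CPM in NestinCre EAE, with Ly6c2 and F10 at 0 in fl EAE and no marker at 0 in NestinCre EAE. The dendritic cell list went from 33.0 to 60.0 up to 149 to 232 CPM with Xcr1 and Cd209a at 0 in NestinCre EAE, and the microglia list down from 4633 to 5539 to 3125 to 4112. The neutrophil list was at 426 to 622 and 463 to 767 CPM, with Retnlg and Ly6g at 0 in both groups, and the groups overlap. No UMI of the border-associated macrophage list was in 427 of 580 microglia of fl EAE and 822 of 1074 of NestinCre EAE. In cluster microglia 4 the microglia list stood at 2798 CPM and the phagocyte list at 277, whereas the phagocyte class had 504 and 4713. The part of other myeloid nuclei in these values was not tested, but the members were counted without nuclei that held such markers.

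Among 836 NestinCre EAE microglia with no UMI of the phagocyte list, the levels were 51.1 CPM for Acod1, 79.4 for Xdh, 100.0 for Aoah, 75.5 for Cybb and 42.2 for Tnf, against 0.930, 2.79, 2.79, 10.2 and 17.7 in the 547 such nuclei of fl EAE. Leaving out as well every microglia nucleus with a neutrophil, border-associated macrophage or dendritic cell marker left 192 nuclei in NestinCre EAE and 169 in fl EAE. These held 23 Xdh UMIs against 0 and 15 Aoah UMIs against 0, but 1 Acod1 UMI against 0, 13 Cybb against 9 and 10 Tnf against 5. So 1 of 182 Acod1 UMIs was left, and Cybb and Tnf stood at 41.1 and 31.6 CPM in NestinCre EAE beside 32.1 and 17.9 in fl EAE. The definition also removes deep nuclei first: microglia with Acod1 had a median of 3466 UMIs and those without it 2009. Marker levels per UMI differed too. The microglia list was at 1883 CPM in the microglia with Acod1 and 3774 in those without it. The phagocyte list was at 303 against 156.5 CPM and the dendritic cell list at 424 against 170. The neutrophil list, at 584 against 613, and the border-associated macrophage list, at 165 against 149.5, were close. Whether nuclei of other myeloid classes are among the microglia with Acod1 was not tested. The neutrophil list removed the most nuclei, as 375 of 1074 microglia in NestinCre EAE and 248 of 580 in fl EAE had no UMI of it. In NestinCre EAE that list stood at 704 to 755 CPM in microglia 1 to 3, above the 355 CPM of infiltrating phagocytes. Whether the nuclei left are purer microglia was not tested.

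To compare nuclei at 1 depth, each was thinned to 500 UMIs. At least 1 UMI of any member was then in 77.7% of phagocytes, 72.7% of border-associated macrophages, 57.6% of neutrophils and 13.6% of microglia of NestinCre EAE, against 1.57% of granule cells. Unthinned the shares were 93.2, 93.2, 68.6, 34.3 and 6.21%. In fl EAE the thinned shares were 62.5% of 40 phagocytes, 65.4% of 52 border-associated macrophages, 50.0% of 24 neutrophils, 1.90% of 580 microglia and 0.400% of granule cells. No nucleus was too shallow to be thinned in these classes. Without thinning, members also met in the same microglia of NestinCre EAE: Cybb and Aoah in 46 nuclei, Xdh and Aoah in 42, Xdh and Cybb in 42, and Acod1 with Aoah in 24 of its 51. In phagocytes Nos2 and Arg1, in 20 and 21 of 354 nuclei, met in 3. Such counts can rise with depth, and they were not set against an expected number.

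Summed over all nuclei of a sample, which needs no naming of classes, 3.31% of 17754 genes were called by genotype in EAE, 3.24% higher and 0.062% lower in NestinCre EAE. The 587 calls fell to 204 without fl EAE 1, 270 without fl EAE 2, 332 without NestinCre EAE 1 and 305 without NestinCre EAE 3. Nos2 was at 0.0308 to 0.0976 CPM in fl EAE and 0.618 to 1.42 in NestinCre EAE, a log2 fold change of 3.81 (SE 0.34). Cybb was at 1.41 to 2.56 and 3.78 to 12.8 CPM, a log2 fold change of 2.26 (SE 0.29). Leaving out 1 sample gave 3.66 to 4.00 for Nos2 and 2.11 to 2.58 for Cybb.

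Il1b in whole libraries was at 0.208, 0.119, 0.878 and 0.231 CPM in replicates 1 to 4 of fl EAE, against 5.21, 3.56, 6.80 and 0.326 in those of NestinCre EAE. The log2 fold change was 3.07 (SE 0.66), and NestinCre EAE 4, without neutrophils, lay below fl EAE 3. Tnf was at 0.0154 to 0.625 and 0.722 to 3.17 CPM, with a log2 fold change of 3.01 (SE 0.80), and the groups do not overlap. Leaving out 1 sample gave 2.46 to 5.15 for Tnf, the highest without fl EAE 3, and 2.62 to 3.665 for Il1b. Arg1 was at 2.21 to 3.14 and 2.13 to 3.26 CPM, with a log2 fold change of 0.00 (SE 0.19). The members that did not overlap between EAE groups in whole libraries were all but Arg1 and Il1b, where 5.49% of genes lay higher in every NestinCre EAE sample.

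In granule cells, where 1.7% of 15829 genes were called, the log2 fold change was 3.41 for Il1b (SE 0.52), 1.76 for Cybb (SE 0.28) and -0.22 for Arg1 (SE 0.18). Il1b was at 0.281 to 2.62 CPM in NestinCre EAE and 0.0236 to 0.490 in fl EAE, and the groups overlap, as fl EAE 3 lay above NestinCre EAE 4. Cybb was at 2.14 to 7.01 and 1.13 to 1.76 CPM, without overlap. Granule cells are the class used above to gauge free RNA.

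Between fl EAE and fl naive microglia no gene of 8735 was called (0%) by edgeR, with 573 at an unadjusted p under 0.05, and DESeq2 called 1. Cybb had a log2 fold change of 1.91 (SE 1.54), and Tnf of 1.32 (SE 1.30). Mean levels were 8.28 and 13.3 CPM in fl EAE and 0.928 and 6.63 in the 2 fl naive samples. Run 3 held only fl naive 3 and NestinCre naive 2, the 1 sample of its group. With run and group both fitted, fl naive 3 therefore adds nothing to the fitted difference. The contrast rests on fl naive 2 alone, at 1.86 CPM for Cybb and 3.71 for Tnf. Standard errors of this size leave changes of several-fold undetectable.

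Other genes of the same pathways were followed in 8 lists and tested (edgeR quasi-likelihood test, p-values adjusted over all genes of the fit). In microglia 52 of the 90 genes were tested and 10 were higher in NestinCre EAE and 0 lower, beside 4.8% and 1.54% over all genes, and between fl EAE and fl naive none of 58. The 10 became 6 in run 1 alone and 6 without fl EAE 1. In whole libraries 28 of 82 were higher and 0 lower, beside 3.24% and 0.062% over all genes. Around itaconate, Nfe2l2, the antioxidant regulator that itaconate activates, had a log2 fold change of 0.70 in microglia (edgeR adjusted p = 0.0444), the only 1 of 8 tested, a list with a median of 0.13 against -0.01 over all genes. Of the purine breakdown genes around Xdh and of the arginine and nitric oxide genes around Nos2 and Arg1, 2 each were tested and none passed, with medians of -0.15 and -0.18. In whole libraries all 11 arginine and nitric oxide genes were tested and none passed, and Pnp, which makes the purine bases that feed Xdh, was the 1 called of 8 purine genes.

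For the oxidase, Cyba, the membrane partner of Cybb, was higher in microglia at 0.93 (adjusted p = 0.0235), 1 of 9 tested, with a list median of 0.07. It was at 43.6 ± 11.2 CPM in fl EAE and 84.4 ± 12.98 in NestinCre EAE (SD, n = 4), beside 46.4 and 95.5 in fl naive and 48.7 in NestinCre naive. Ncf1, Ncf4, Rac2 and Hvcn1 joined Cyba in whole libraries, 5 of 11. Chil1, a chitinase-like relative of Chil3, was higher in microglia at 1.60 (adjusted p = 0.0109), 1 of 3 tested, from 25.3 ± 11.8 to 78.1 ± 35.6 CPM (SD, n = 4), beside 27.8 and 57.3 in fl naive and 55.2 in NestinCre naive. Among partners of the cytokines, Casp4 at 0.97 and Gsdmd at 0.99, which open the membrane pore that lets interleukin-1 out, were 2 of 8 tested, with a list median of 0.66. Birc3 at 0.97 and Tnfaip2 at 2.67, both induced by tumour necrosis factor, were 2 of 7, with a list median of 0.76. Among transcription factors Irf1 at 1.94, Cebpb at 0.96 and Irf8 at 0.66 were 3 of 13, with a list median of 0.38 (edgeR adjusted p of these 7 genes 0.000312 to 0.0412). In microglia without markers of other myeloid classes 9 list genes were tested and none passed.

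By their pattern over 38 profiles (immune classes of samples with at least 10 nuclei, 11358 genes ranked), the genes most like each member, given as Pearson's r of log2(CPM + 1) with no p, were Hp, Upp1 and Tnfaip2 for Acod1 (r of 0.87 to 0.85) and Fpr3, Upp1 and Tarm1 for Nos2 (0.89 to 0.83). Aoah was most like Msr1, Dab2 and F13a1 (0.84 to 0.80), Xdh like Klra2, Fgl2 and Atrnl1 (0.82 to 0.79), and Cybb like Trps1, Cd74 and Oas2 (0.83 to 0.77). Chil3 was most like Wfdc17, Plac8 and Oas3 (0.82 to 0.74), Il1b like Gm38236, Ifitm2 and Mcl1 (0.83 to 0.80), Tnf like Map4 and Pgm2 (0.75 and 0.73) and Arg1 like Vdr, Flt1 and Papss2 (0.72 to 0.70). Profiles share libraries and depth, and several low genes have a pattern set by few nuclei. Among the members themselves Acod1 and Nos2 were the closest pair (0.79), and Cybb and Tnf (0.02) and Aoah and Tnf (0.03) the least alike.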

How the data were processed

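Single nuclei of 11 mouse samples were sequenced with 10x Genomics 3′ chemistry. The authors deposited 1 matrix of raw UMI counts per sample, from Cell Ranger 7.0.0 (run 1) or 6.0.2 (runs 2 and 3) per the file headers, on GRCm39 with introns counted. Depth was 40761007 to 86063464 UMIs and 13120 to 22951 barcodes per sample.

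Nuclei with at least 200 genes (run 1) or 500 (runs 2 and 3) and at most 5% mitochondrial UMIs were clustered on 3000 variable genes without the members, and clusters were named from marker lists. Clusters with over 40% high-scoring nuclei (simulated doublets, 0.8% expected per 1000 barcodes) and depth above the sample's median were removed, as were single high-scoring nuclei deeper than the median. The depth limit was set after nuclei per class had been seen, because removing every high-scoring nucleus took most phagocytes of NestinCre EAE 4, and the alternative without it was chosen after seeing the data.

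UMIs were summed per sample and class (samples with at least 10 nuclei for a mean), and expressed per 1000000. Genotype was tested with edgeR 4.0.16 (quasi-likelihood, TMM, filterByExpr, sequencing run as covariate, Benjamini-Hochberg over all genes tested, threshold 0.05) in R 4.3.3, with Python 3.11.15 for the rest, and fl EAE against fl naive in a fit of all 11 samples. The filter keeps a gene through the group where it is high, and members, chosen on their summed UMIs, are given as fold changes with SE and no test. The alternatives were DESeq2 1.42.0, RLE factors, no filter, the replicate number as block, run 1 alone, each sample left out, a limit of 6000 UMIs, no removal for score, microglia without markers of other myeloid classes, and free RNA subtracted. On simulated counts for the microglia comparison (6784 genes), 28 of 33 tested genes changed by -2 and 48 of 50 changed by 2 on the log2 scale were called, against 6 of 44 and 11 of 50 changed by -1 and 1.

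The members and lists were chosen with earlier results of these data known. The text names the members, list genes past the threshold in microglia (at most 3 per list and comparison) and the 3 genes most like each member, of which 1 is not reported here; list genes of whole libraries were named after their values were seen. Replicates are separate samples per the labels; p-values measure the spread between them. Promoters of Nos2, Xdh and Arg1 were not used here.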

Additional observations from a re-analysis of the deposited data

Results flagged for a closer look

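A sample was set apart when its gap to the next sample exceeded Dixon's 95% critical value for its group. Of 62 groups of 4 samples (members in microglia, phagocytes, granule cells and whole libraries) 11 were set apart. Chance sets apart about 1 in 20, but the count is not read against it, because in 3 of the 11 (Acod1 and Chil3 in microglia and Tnf in granule cells) the other samples were at 0, so that any UMI would have been set apart.

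In 8 of them the highest sample was fl EAE 3: Acod1 and Chil3 in microglia, each 2.14 CPM from 1 UMI against 0 in the other 3 samples, Il1b and Tnf in granule cells (0.490 and 0.123 CPM), and Acod1, Cybb, Il1b and Tnf in whole libraries (0.722, 2.56, 0.878 and 0.625 CPM). Sample fl EAE 3 had the most immune nuclei of its group, 283 against 131 to 158, and the most microglia, 229 against 106 to 126, while its 16 phagocytes and 7 neutrophils stood beside 18 and 8 in fl EAE 4. Their part in these values was not tested.

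In NestinCre EAE, Nos2 in phagocytes was 737.5 CPM in replicate 4 against 136 in the next sample, from 28 UMIs in 3 of 24 nuclei, 1 of which held 18. Chil3 in microglia was 57.3 CPM in replicate 1 against 3.06, in the sample whose granule cells had 40.3 CPM. Tnf in whole libraries was 3.17 CPM in replicate 3 against 1.11.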

How the results depend on the processing

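Of 81 recomputed shares of the leading class, 60 moved by less than their interval and 21 by more, and in 4 another class led. With microglia limited to nuclei without markers of other myeloid classes, the shares became 0.339% (Acod1) and 16.1% (Tnf) in microglia, where phagocytes then led, 65.2% (Il1b) in neutrophils, and 70.0% (Xdh), 69.7% (Aoah), 93.8% (Arg1), 74.6% (Cybb) and 82.1% (Chil3) in phagocytes. That limit kept 192 of 1074 NestinCre EAE microglia and cut no other class, so lower shares in microglia and higher shares elsewhere were fixed by it. Without nuclei of at least 6000 UMIs, Acod1 in microglia was 29.4%, with phagocytes leading, and Aoah in phagocytes 54.7%. Chil3 in phagocytes was 83.4% with free RNA subtracted and 80.7% with every high-scoring nucleus removed. Leaving out 1 sample gave 32.4 to 45.5% (Acod1), 49.7 to 53.1% (Xdh), 47.6 to 54.0% (Aoah), 56.0 to 81.2% (Nos2), 82.6 to 88.2% (Arg1), 51.1 to 60.4% (Cybb), 74.7 to 85.1% (Chil3), 53.1 to 62.4% (Il1b) and 67.6 to 77.1% (Tnf).

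The 454 genes called in microglia became 50 of 1386 tested in microglia without other markers, where fewer nuclei and genes enter, and 326 to 481 without 1 sample. List genes called became 6 in run 1 alone, 0 without other markers and 6 to 10 without 1 sample (6 without fl EAE 1). The 587 called in whole libraries became 204 to 666 without 1 sample. Between fl EAE and fl naive, DESeq2 called 1, no filter 39, microglia without other markers 1, and leaving out 1 sample 0 to 11. Without fl naive 2 this contrast could not be estimated. All recomputed fold changes of Cybb and Tnf in microglia and of Nos2, Cybb, Il1b and Tnf in whole libraries were positive, and those of Arg1 in whole libraries lay from -0.14 to 0.12. The causes were not tested.

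Same-numbered EAE samples did not deviate together (correlations of -0.0706, 0.0520, -0.000826 and -0.0278), so the number was not taken as a pairing. With the replicate block in place of run, 428 genes were called in microglia, 10 list genes, and 535 in whole libraries. Depth limits Nos2, Arg1, Chil3 and Il1b in microglia, with 0 to 33 UMIs per sample, and members in phagocytes and neutrophils of fl EAE, with 40 and 24 nuclei.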

Other observations

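Nuclei removed as doublets held part of every member, as they did of all RNA. Over all genes the matrices held 6.53e+08 UMIs and the kept nuclei 5.03e+08, and the clusters removed as doublets were 13079 of 188089 nuclei. The share of all UMIs in those clusters was not computed, so no member is read as removed in particular. Clusters removed as doublets held 17.4% of all Acod1 UMIs, 21.6% of Xdh, 22.4% of Aoah, 14.2% of Nos2, 14.1% of Arg1, 14.8% of Cybb, 10.7% of Chil3, 20.2% of Il1b and 19.3% of Tnf, and 16.9% of Nos2 UMIs and 10.0% of Aoah UMIs were in single nuclei removed for their score.

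In the naive samples border-associated macrophages were the only myeloid class with at least 9 nuclei per sample beside microglia, and they held Aoah (829, 1240 and 813 CPM in the 2 fl and the 1 NestinCre naive sample) and Cybb (587, 271 and 244 CPM). Xdh had 5 UMIs in NestinCre naive 2 and 0 in both fl naive samples, while Acod1, Nos2, Arg1, Chil3, Il1b and Tnf had 0 UMIs in these macrophages. The 1 neutrophil nucleus of NestinCre naive 2 held 7 Chil3, 5 Aoah and 3 Cybb UMIs.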
